A study of Mus musculus with 6 samples.

Results

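The 42 genes described here act in mitosis, the stage of the cell cycle in which duplicated chromosomes are condensed, attached to the spindle and divided between daughter cells. They were taken by symbol from the 19124 gene symbols of the deposited table, with 1 transcript entry per symbol. All 42 were present and all 42 passed the filter on low counts that left 16217 genes to test. Kinesin motors were meant to be left out, although Cenpe, which is among the 42, is itself a kinesin of the kinetochore.

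RNA came from retinal cells of C57BL/6 mouse pups sorted for CD31 (Pecam1), which marks endothelial cells and is found on platelets and certain blood cells as well. The Ctrl group is 3 pups of genotype Pdgf{beta}CreERT2neg Rnf20p/p and the KO group is 3 pups of genotype Pdgf{beta}CreERT2pos Rnf20p/p. All 6 pups received 75 µg of Z-4-HO-Tamoxifen daily from postnatal day 1 to day 4, and retinas were taken at day 7, so both groups carry the Rnf20p/p alleles and the drug. The groups differ in the recombinase as well as in the deletion, and these cannot be told apart. CreERT2 is a recombinase that tamoxifen switches on, and the Pdgfb promoter drives it in endothelium, so other sorted cells may keep Rnf20. Rnf20, an E3 ubiquitin ligase of histone H2B, measured 47.9, 57.1 and 56.8 CPM (counts scaled by library size) for Ctrl 1 to 3 against 39.1, 31.0 and 31.7 for KO 1 to 3. Each KO library lay below each Ctrl library, but the change did not pass the test (log2 fold change −0.67, SE 0.235, edgeR adjusted p = 0.101), and the counts cover the whole gene, including transcripts that lack a deleted part.

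Entry into mitosis is driven by the kinase Cdk1 bound to cyclins A and B. Aurora, Polo and Bub kinases then direct the spindle and the attachment of chromosomes, and the anaphase-promoting complex (APC/C) ends mitosis by destroying cyclin B and securin. Most of these genes are transcribed late in the cell cycle, so that their RNA is used as a sign of dividing cells. In the retina at this age endothelial cells of the growing vessels divide, and so do the last retinal progenitors, microglia and glia. In sorted bulk RNA, fewer dividing cells and less RNA per dividing cell cannot be told apart.

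Libraries held 14581701 to 30692948 counts, with Ctrl 3 the shallowest. Levels below are CPM with TMM scaling and are given as mean ± SD over 3 pups. TMM applies a factor to each library, taking most genes as unchanged, and does not make the mix of cell types equal. Fold changes are KO over Ctrl, with the SE of the log2 fold change. Groups were compared by the quasi-likelihood test of edgeR, Benjamini-Hochberg adjusted over all 16217 genes and a two-sided threshold of 0.05. An exact permutation test of 3 against 3 libraries cannot give a two-sided p below 0.1.

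Of the 42 mitosis genes 6 rose and 0 fell, with libraries scaled by TMM. Of all genes tested, 5.85% were called higher and 4.44% lower. The 6 were Spc24, Cenpa, Cdc20, Ube2c, Cdca8 and Birc5, and each was between 2.01 and 2.45 times as high in KO. For the fall, 0 members had an unadjusted p under 0.05 with a negative estimate, and DESeq2 and limma-voom called 0 lower. DESeq2 called 8 members higher, the same 6 with Cdk1 and Aurkb, where it called 12.6% of all genes higher and 9.49% lower. Limma-voom called 7, the same 6 with Aurkb, where it called 6.09% higher and 5.69% lower. By edgeR 8 of the 42 had an unadjusted p under 0.05, all 8 higher, against 30.5% of all genes in either direction. In the authors' deposited table, at an adjusted p under 0.05, 8 members were higher and 0 lower, where 13.6% of all genes with an adjusted p were higher and 8.20% lower. The median log2 fold change over the 42 genes was 0.42, from −0.48 to 1.29, against 0.03 over all genes, and 35 of the 42 estimates were above 0, where 51.0% of all genes were. In 12 of the 42 every KO library lay above every Ctrl library, against 19.0% of all genes, and in 0 of the 42 every KO library lay below, against 18.9%.

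These calls depend on the libraries and on the scaling. Without Ctrl 1, Ctrl 2, Ctrl 3, KO 2 or KO 3, 0 of the 42 were called, with 8, 8, 8, 8 and 11 at an unadjusted p under 0.05. Without KO 3, 3.02% of all genes were called higher and 2.22% lower, and without any of the other 4 none were. Without KO 1, 7 were called, the same 6 and Aurkb, where 15.2% of all genes were called higher and 14.5% lower. The median log2 fold change of the list was 0.10 without KO 1 and 0.22 without Ctrl 1, against 0.04 and 0.07 over all genes. Without KO 1, 23 of the 42 estimates were above 0, and without Ctrl 1, 30 were. Endothelial markers were higher in KO (10 of 15 rose and 0 fell). When libraries were scaled to equal endothelial markers, the median of all genes moved to −1.21 and that of the 42 mitosis genes to −0.81. The gap between these medians, 0.41 against 0.39 with TMM, tests nothing, because a factor per library shifts all genes nearly alike. Under endothelial scaling 0 members were called higher and 6 lower: Ccna2, Spc25, Bub1b, Ncapg, Ncapd2 and Ect2. Of all genes, 0.462% were then called higher and 45.7% lower. With library size alone 2 members were called higher, where 4.21% of all genes were higher and 5.16% lower. RLE scaling and the other filters and transcript entry called 5 or 6 members, with all genes at 6.20% higher and 4.29% lower (RLE), 5.86% and 4.49% (at least 10 counts), 4.31% and 3.30% (no filter) and 5.84% and 4.45% (entry with the highest count). With the replicate number as a block 0 members and 0.00617% of all genes were called higher.

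**Figure D1:**
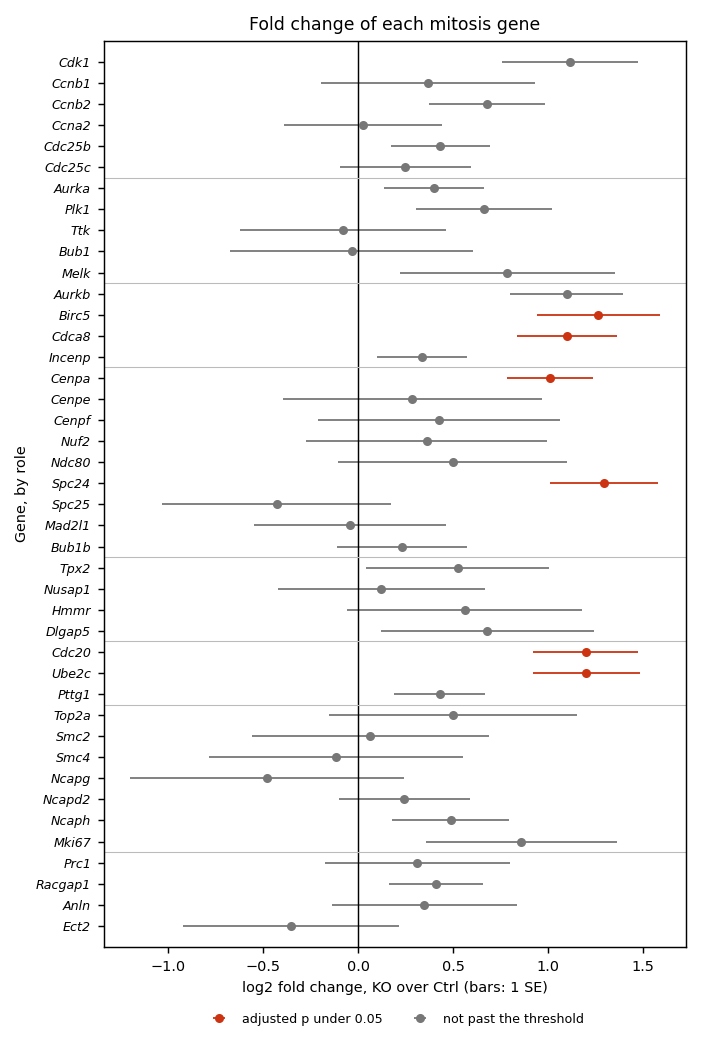
Log2 fold change between KO and Ctrl for each of the 42 mitosis genes (points, with bars of 1 SE), grouped by role, with TMM scaling. The 6 genes past the threshold (red) lie between 1.01 and 1.29. Of the 42 estimates 35 are above 0, and 23 are when KO 1 is left out. With libraries scaled to equal endothelial markers the median changes sign, to −0.81.

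The chromosomal passenger complex joins the kinase Aurkb to Incenp, its scaffold, and to Birc5 (survivin) and Cdca8 (borealin), which bring it to the centromere. Of these 4 genes 2 rose and 0 fell, and in all 4 every KO library lay above every Ctrl library. Over all genes 5.85% rose, and in 19.0% every KO library lay above every Ctrl library. Birc5 (NM_001012273, chromosome 11, 117849237 to 117855743) measured 20.3, 37.7 and 38.1 CPM for Ctrl 1 to 3 against 97.4, 69.6 and 63.7 CPM for KO 1 to 3. The lowest KO library was well above the highest Ctrl library. The mean went from 32.1 ± 10.2 to 76.9 ± 18.0 CPM (SD, n = 3 each), a log2 fold change of 1.26 (SE 0.324, edgeR adjusted p = 0.0467). Cdca8 (NM_026560, chromosome 4, 124918465 to 124936917) measured 25.0, 37.5 and 32.3 CPM in the Ctrl pups against 62.9, 81.0 and 59.1 CPM in KO, again without overlap. Its mean went from 31.6 ± 6.27 to 67.6 ± 11.7 CPM (SD, n = 3), a log2 fold change of 1.10 (SE 0.263, edgeR adjusted p = 0.0396).

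Aurkb, the kinase of the complex, was named after its values were seen, because it lay closest to the threshold without passing it. Aurkb measured 18.0, 32.6 and 22.9 CPM in the Ctrl pups against 51.3, 60.1 and 45.8 CPM in KO, a log2 fold change of 1.10 (SE 0.295, edgeR adjusted p = 0.0529, range 0.00937 to 0.819 over 16 alternatives). The 3 KO libraries were all above the 3 Ctrl libraries. Incenp ranged from 28.8 to 37.8 CPM in the Ctrl pups and from 42.0 to 44.4 CPM in the KO pups and did not pass (edgeR adjusted p = 0.367). With libraries scaled to equal endothelial markers, the log2 fold changes of Birc5, Cdca8 and Aurkb were 0.09, −0.12 and −0.11, and none of the 3 passed (edgeR adjusted p from 0.798 to 0.853).

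Kinetochore genes differed in how they varied between libraries. Cenpa is the histone H3 variant that marks the centromere, and Spc24 is a subunit of the Ndc80 complex, which ties the kinetochore to microtubules. Cenpa (NM_001302130, chromosome 5, 30666877 to 30674837) measured 30.1, 35.6 and 37.4 CPM in the Ctrl pups against 72.6, 72.0 and 62.7 CPM in KO. Both groups were tight, and they did not overlap. Its mean went from 34.4 ± 3.83 to 69.1 ± 5.53 CPM (SD, n = 3), a log2 fold change of 1.01 (SE 0.226, edgeR adjusted p = 0.0337). Spc24 (NM_001357331, chromosome 9, 21755434 to 21760446) measured 14.0, 20.7 and 19.4 CPM in the Ctrl pups against 36.1, 52.6 and 43.7 CPM in KO. It had the largest fold change of the 42, at 1.29 on the log2 scale (SE 0.283, edgeR adjusted p = 0.0321), and KO 1 was its lowest KO library.

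The partners of Spc24 in the Ndc80 complex had another pattern. Spc25, which pairs directly with Spc24, measured 21.2, 50.2 and 76.2 CPM in the Ctrl pups against 68.0, 24.5 and 17.0 CPM in KO, a log2 fold change of −0.43 (SE 0.604, edgeR adjusted p = 0.667). It was named after its values were seen. Its groups overlapped, with Ctrl 1 beside KO 2 and KO 3 and with KO 1 beside Ctrl 2 and Ctrl 3. Ndc80 and Nuf2, the other two subunits, had their highest level in KO 1, at 29.3 and 27.0 CPM, and reached 8.09 and 5.76 CPM in KO 3, within the Ctrl ranges of 4.72 to 15.7 and 4.95 to 14.5 CPM.

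Cenpe, the kinesin that carries chromosomes to the spindle equator, measured 7.62, 24.1 and 19.6 CPM in the Ctrl pups against 43.4, 10.7 and 8.36 CPM in KO. Only KO 1 was above the Ctrl range, while KO 2 and KO 3 lay below Ctrl 2 and Ctrl 3. Its log2 fold change was 0.29 (SE 0.681, edgeR adjusted p = 0.808), and it was −0.77 without KO 1. Cenpf, a large kinetochore protein, and the checkpoint genes Mad2l1 and Bub1b had KO 1 as their highest library too, at 29.4, 39.2 and 46.5 CPM, and did not pass (edgeR adjusted p from 0.684 to 0.963). Of the 9 kinetochore and checkpoint genes 2 rose and 0 fell, where 5.85% of all genes rose and 4.44% fell.

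Of the 3 genes of the APC/C group 2 rose and 0 fell, where 5.85% of all genes rose and 4.44% fell. Cdc20 activates the APC/C, Ube2c is the ubiquitin-conjugating enzyme that works with it, and Pttg1 is securin, a substrate whose loss frees separase. Cdc20 (NM_023223, chromosome 4, 118432901 to 118437343) measured 28.8, 39.0 and 40.4 CPM in the Ctrl pups against 68.6, 107 and 72.8 CPM in KO, with a log2 fold change of 1.20 (SE 0.276, edgeR adjusted p = 0.0358). It overlaps Elovl1, and because strand was not used its counts are uncertain. Ube2c (NM_026785, chromosome 2, 164769929 to 164772902) measured 17.5, 29.5 and 28.7 CPM in the Ctrl pups against 64.3, 54.8 and 54.8 CPM in KO. The mean of Ube2c went from 25.3 ± 6.70 to 58.0 ± 5.46 CPM (SD, n = 3), a log2 fold change of 1.20 (SE 0.281, edgeR adjusted p = 0.0376). For both genes every KO library was above every Ctrl library.

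Pttg1 measured 29.2, 28.0 and 30.7 CPM in the Ctrl pups against 45.8, 35.2 and 37.3 CPM in KO. Its groups did not overlap either, but the log2 fold change of 0.43 (SE 0.240) did not pass (edgeR adjusted p = 0.261). It was named after its values were seen, because it passed with GC offsets, where it stood at 0.73 (edgeR adjusted p = 0.0428, range 0.0428 to 0.532 over 16 alternatives). With GC offsets Cdc20 (0.87) and Ube2c (0.92) did not pass (edgeR adjusted p = 0.0633 and 0.104). With libraries scaled to equal endothelial markers, Cdc20 and Ube2c were at −0.02 and 0.02, Cenpa at −0.21 and Spc24 at 0.09, and none passed.

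**Figure D2:**
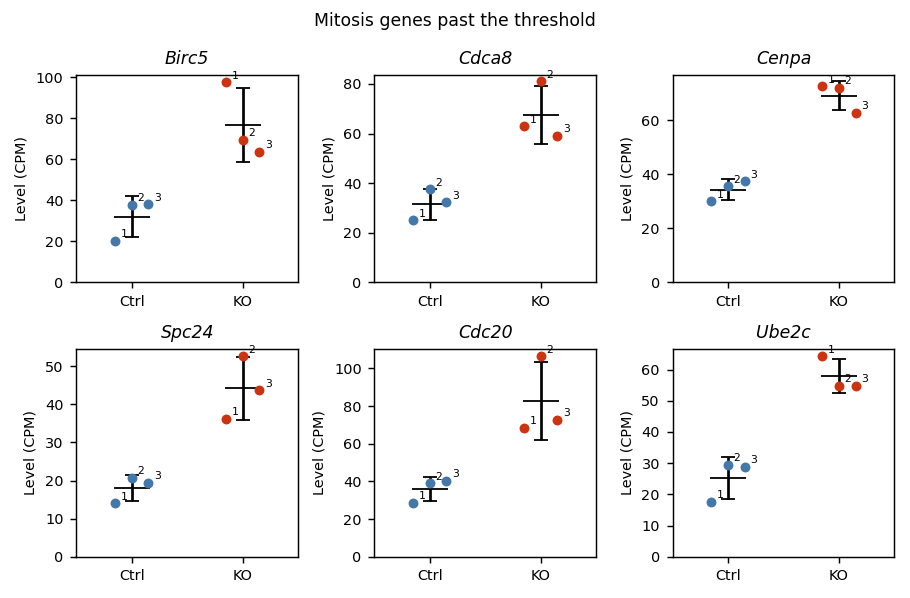
Level in CPM, with TMM scaling, of the 6 mitosis genes past the threshold in each Ctrl (blue) and KO (red) library, numbered by pup. Horizontal lines with bars are the mean ± SD (n = 3), and in each panel all 3 KO points lie above all 3 Ctrl points. With libraries scaled to equal endothelial markers the log2 fold changes of these 6 genes lie between −0.21 and 0.09.

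The promoters of these genes are shown because mitotic genes are known to share 2 elements there: the CHR, TTTGAA, which the MuvB core of the DREAM and B-MYB complexes binds, and CCAAT boxes, which NF-Y binds. RefSeq promoter windows of GRCm38.p6, from 250 bases before to 50 bases after a start site, were searched for TTTGAA and CCAAT on both strands. Windows of 34 of the 42 genes were used, 36 in all. TTTGAA was found in 69.4% of them, against 17.9% of the 32851 windows searched, and CCAAT in 75.0% against 37.4%. Both were in 63.9%, against 6.95% of the windows searched. In the 16026 windows of genes tested, TTTGAA was in 12.4%, CCAAT in 37.3% and both in 4.90%. Of the called genes with a window, 4 of 5 held both, and of the other mitosis genes 17 of 29 held both. The 4 windows follow, 5′ to 3′ on the strand of the gene, with each TTTGAA and CCAAT, or their complements TTCAAA and ATTGG, in capitals.

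Cenpa: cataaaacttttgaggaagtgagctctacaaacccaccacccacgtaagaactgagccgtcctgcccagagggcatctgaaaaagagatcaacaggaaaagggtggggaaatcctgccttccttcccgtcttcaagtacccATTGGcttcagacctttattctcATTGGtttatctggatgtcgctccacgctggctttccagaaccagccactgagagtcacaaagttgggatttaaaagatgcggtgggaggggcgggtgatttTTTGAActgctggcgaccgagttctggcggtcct

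Cdc20: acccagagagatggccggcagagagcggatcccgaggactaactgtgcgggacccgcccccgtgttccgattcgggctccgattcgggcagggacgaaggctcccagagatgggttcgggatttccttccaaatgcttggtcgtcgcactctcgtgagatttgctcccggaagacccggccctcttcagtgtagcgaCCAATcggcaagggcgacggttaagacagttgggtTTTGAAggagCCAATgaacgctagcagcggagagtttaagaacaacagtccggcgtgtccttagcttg

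Ube2c: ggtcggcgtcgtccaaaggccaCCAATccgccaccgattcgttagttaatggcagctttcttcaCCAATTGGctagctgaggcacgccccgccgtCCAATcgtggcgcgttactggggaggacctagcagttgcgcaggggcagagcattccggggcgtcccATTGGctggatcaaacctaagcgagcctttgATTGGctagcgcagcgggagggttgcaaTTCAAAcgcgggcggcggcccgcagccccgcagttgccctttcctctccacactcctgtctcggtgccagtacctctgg

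Cdca8: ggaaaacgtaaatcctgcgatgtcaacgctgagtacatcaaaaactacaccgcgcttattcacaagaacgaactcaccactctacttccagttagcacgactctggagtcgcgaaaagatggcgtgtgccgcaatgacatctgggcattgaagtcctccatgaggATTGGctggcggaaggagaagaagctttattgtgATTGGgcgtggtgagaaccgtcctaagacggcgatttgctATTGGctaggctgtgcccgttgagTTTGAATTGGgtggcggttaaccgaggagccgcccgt

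The window of Cenpa is chr5:30666636-30666935 on the plus strand, with the TTTGAA match beginning at position 17 from the start site and CCAAT matches at −109 and −86. That of Cdc20 is chr4:118437294-118437593 on the minus strand, with TTTGAA at −18 and CCAAT at −53 and −8. The window of Ube2c, chr2:164769679-164769978 on the plus strand, has its TTTGAA match at −29 and 6 CCAAT matches, at −228, −186, −183, −155, −88 and −57, of which those at −186 and −183 overlap. The window of Cdca8, chr4:124936868-124937167 on the minus strand, has TTTGAA at 14, which shares a base with the CCAAT match at 19, and further CCAAT matches at −85, −51 and −11. These matches describe letters and not binding. Birc5 held neither sequence in its window, although it rose.

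Cyclins, Cdk1 and their phosphatases had 0 of 6 called by edgeR in either direction, with 1 at an unadjusted p under 0.05 (Cdk1), 1 called by DESeq2 and 0 by limma-voom. Over all genes edgeR called 10.3% in either direction, and 30.5% had an unadjusted p under 0.05. DESeq2 called 12.6% of all genes higher and 9.49% lower, and limma-voom 6.09% and 5.69%. In role groups this small, 0 called is near the share of all genes. Cdk1, the kinase that starts mitosis, measured 32.5, 66.6 and 62.3 CPM in the Ctrl pups against 159, 98.9 and 90.4 CPM in KO. All KO libraries were above all Ctrl libraries, but Cdk1 varied within the groups. Its mean was 53.8 ± 18.6 CPM in the Ctrl pups against 116 ± 37.6 CPM in KO (SD, n = 3), a log2 fold change of 1.11 (SE 0.357, edgeR adjusted p = 0.0808). With GC offsets it was 1.30 and passed (edgeR adjusted p = 0.0304, range 0.0244 to 0.904 over 16 alternatives), and with libraries scaled to equal endothelial markers it was −0.06.

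The 2 B cyclins differed. Ccnb2 measured 27.0, 45.6 and 49.7 CPM in the Ctrl pups against 80.8, 59.2 and 55.4 CPM in KO, without overlap, at a log2 fold change of 0.68 (SE 0.305, edgeR adjusted p = 0.176). Ccnb1, at 3.72, 11.2 and 9.84 CPM in the Ctrl pups against 18.4, 7.09 and 6.48 CPM in KO, was above the Ctrl range in KO 1 alone (log2 fold change 0.37, SE 0.561, edgeR adjusted p = 0.693). The difference between the 2 cyclins was not tested. Ccna2, which acts in S phase and early mitosis, ranged from 30.0 to 71.5 CPM in the Ctrl pups against 39.5 to 85.5 CPM in KO, with means of 57.0 and 58.1 CPM. Of the phosphatases that activate Cdk1, Cdc25b reached 15.1 to 19.9 CPM in the Ctrl pups against 22.9 to 25.5 CPM in KO, and Cdc25c stayed under 10 CPM in each library.

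The mitotic kinases outside the passenger complex had 0 of 5 called, 0 at an unadjusted p under 0.05 and 0 by DESeq2 or limma-voom. Of all genes edgeR called 10.3% in either direction, so 0 of 5 is near that share. Plk1, the Polo kinase of spindle and cytokinesis, measured 13.2, 30.0 and 23.1 CPM in the Ctrl pups against 27.1, 42.9 and 34.8 CPM in KO (log2 fold change 0.66, SE 0.359, edgeR adjusted p = 0.249). KO 1, which lay inside the Ctrl range, was its lowest KO library. Aurka, the Aurora kinase of the centrosome, measured 27.8, 28.1 and 24.9 CPM in the Ctrl pups against 41.9, 37.4 and 27.4 CPM in KO (0.40, SE 0.263, edgeR adjusted p = 0.338). KO 3 lay inside the Ctrl range. The checkpoint kinases Bub1 and Ttk and the kinase Melk had KO 1 as their highest library, at 24.4, 16.8 and 23.8 CPM. In Ctrl 1 they were at 5.26, 6.22 and 3.14 CPM.

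Spindle genes and cytokinesis genes had 0 of 4 and 0 of 4 called, 0 at an unadjusted p under 0.05, and 0 by DESeq2 or limma-voom. With 10.3% of all genes called by edgeR in either direction, 0 of 4 is near that share. Tpx2, which activates Aurka on spindle microtubules, measured 14.7, 37.1 and 32.5 CPM in the Ctrl pups against 64.3, 35.4 and 21.3 CPM in KO, so that KO 2 and KO 3 lay inside the Ctrl range. Dlgap5, a protein of spindle fibres near kinetochores, measured 2.19, 7.88 and 6.65 CPM in the Ctrl pups against 11.7, 10.3 and 4.70 CPM in KO. The microtubule-bundling gene Nusap1 and the hyaluronan receptor Hmmr, also a spindle protein, were highest in KO 1, at 36.1 and 24.5 CPM.

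Among cytokinesis genes Racgap1, a subunit of centralspindlin, measured 38.5, 46.9 and 45.9 CPM in the Ctrl pups against 66.1, 63.0 and 45.2 CPM in KO (log2 fold change 0.41, SE 0.249, edgeR adjusted p = 0.301). Anln, which organises the contractile ring, measured 11.5, 23.6 and 20.9 CPM in the Ctrl pups against 39.4, 20.8 and 11.2 CPM in KO. KO 1 was above the Ctrl range of Anln, and KO 3 was below it. Ect2, the exchange factor that Racgap1 recruits, was at 13.0, 35.6 and 29.4 CPM in the Ctrl pups against 37.0, 14.8 and 9.22 CPM in KO (−0.35, SE 0.567, edgeR adjusted p = 0.708). It was named after its values were seen. Prc1, which bundles the central spindle, ranged from 13.8 to 45.6 CPM in the Ctrl pups against 25.6 to 60.1 CPM in KO.

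Genes of chromosome structure had 0 of 7 called, 0 at an unadjusted p under 0.05, and 0 by DESeq2 or limma-voom. As edgeR called 10.3% of all genes in either direction, 0 of 7 is near that share. Mki67, the common marker of dividing cells, measured 11.7, 18.7 and 19.4 CPM in the Ctrl pups against 54.1, 22.1 and 14.0 CPM in KO. KO 1 was high, KO 2 just above the Ctrl range and KO 3 inside it. The mean of Mki67 was 16.6 ± 4.24 CPM in the Ctrl pups against 30.0 ± 21.2 CPM in KO (SD, n = 3), a log2 fold change of 0.86 (SE 0.503, edgeR adjusted p = 0.284), and 0.20 without KO 1. Top2a, the topoisomerase that untangles sister chromatids, measured 18.2, 60.0 and 56.3 CPM in the Ctrl pups against 126, 39.4 and 24.7 CPM in KO. Its log2 fold change was 0.50 (SE 0.653, edgeR adjusted p = 0.642), and −0.41 without KO 1.

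Condensin, the ring that compacts chromosomes, is built on Smc2 and Smc4. Smc4 measured 34.7, 94.0 and 116 CPM in the Ctrl pups against 155, 30.6 and 39.6 CPM in KO (log2 fold change −0.12, SE 0.666, edgeR adjusted p = 0.924). Ncapg, a subunit of condensin I, measured 7.55, 25.1 and 26.5 CPM in the Ctrl pups against 29.9, 7.01 and 5.45 CPM in KO, the lowest estimate of the 42 at −0.48 (SE 0.721, edgeR adjusted p = 0.690). Both were named after their values were seen. In each, KO 1 was above all Ctrl libraries, and KO 2 and KO 3 were below Ctrl 2 and Ctrl 3. Ncaph, the kleisin of condensin I, measured 32.4, 52.7 and 57.9 CPM in the Ctrl pups against 84.4, 64.7 and 51.0 CPM in KO (0.49, SE 0.310, edgeR adjusted p = 0.323). Smc2 was at 63.6 CPM in KO 1 and at 13.1 to 40.6 CPM in the other libraries, and Ncapd2 alone of the 5 was highest in KO 2, at 67.0 CPM.

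Per kilobase of exonic length, the highest Ctrl levels were those of Spc25, Ccnb2 and Cenpa, at 32.2, 26.6 and 23.4 CPM per kb, and the lowest those of Dlgap5 and Cenpf, at 1.37 and 1.05. In KO Cenpa, Cdc20, Ccnb2 and Cdca8 led, at 47.1, 46.1, 42.5 and 41.6 CPM per kb, and Cenpf was again lowest at 1.41. Reads in introns may be part of the counts, so these levels are approximate. Counts overlap another gene for 8 of the 42: Ccna2, Aurka, Nusap1, Cdc20, Ncapg, Prc1, Anln and Ect2.

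**Figure D3:**
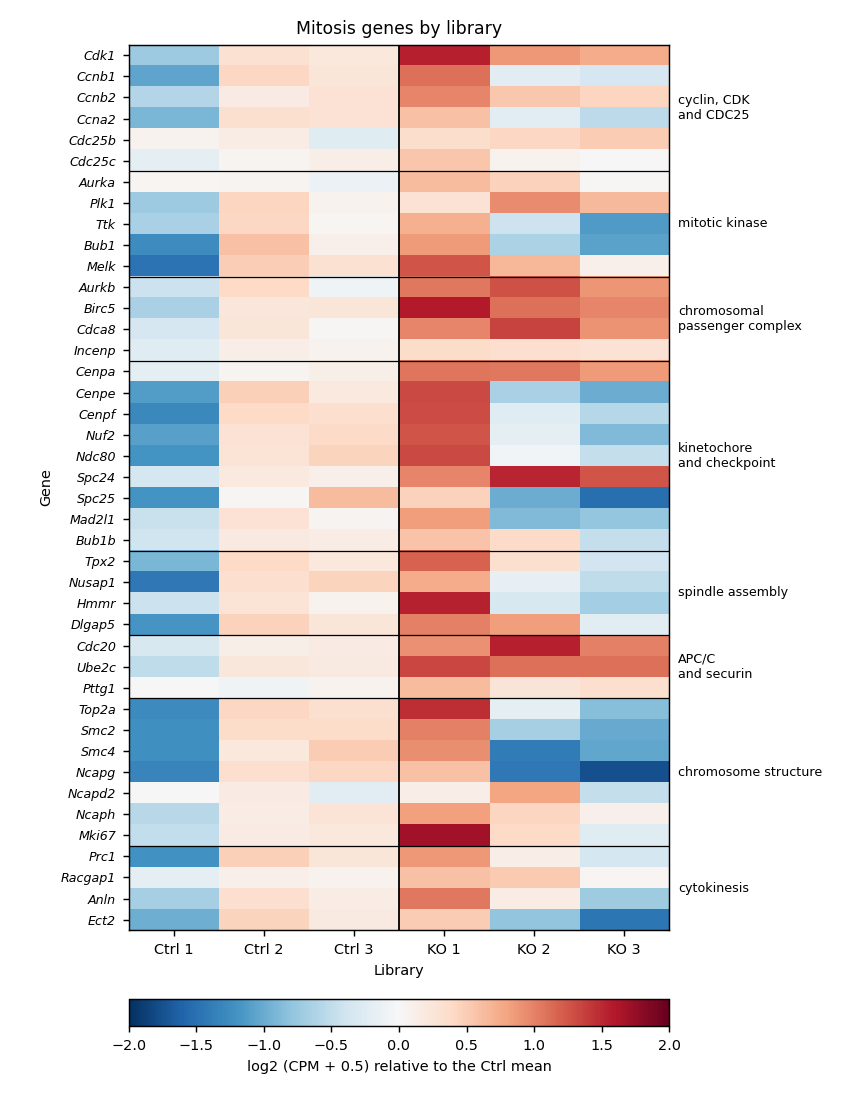
Level of the 42 mitosis genes in each of the 6 libraries, as log2 (CPM + 0.5) relative to the mean CPM of the 3 Ctrl libraries with the same 0.5 added (colour, red above and blue below), with TMM scaling and genes grouped by role. KO 1 is the highest of the 6 libraries for 34 of 42 genes and Ctrl 1 the lowest for 29. The passenger complex and the APC/C genes stay above the Ctrl libraries in KO 2 and KO 3, while 19 genes there lie below Ctrl 2 and Ctrl 3. The share of all genes below in this way was not counted.

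Across the list the libraries differed within each group. Averaged over the 42 genes, log2 CPM was 3.84, 4.83 and 4.74 for Ctrl 1 to 3 and 5.48, 4.75 and 4.36 for KO 1 to 3, so the groups overlapped. KO 1 was the highest of the 6 libraries for 34 genes, and Ctrl 1 the lowest Ctrl library for 38. In KO 2 and KO 3 13 genes were above both Ctrl 2 and Ctrl 3 and 19 were below both, among them Top2a, Smc2, Smc4, Cenpe, Cenpf, Bub1 and Ttk. The shares of all genes above or below in this way were not counted.

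These differences followed the base composition of the transcripts. Over the 42 genes, the log2 ratio of KO 1 to the mean of KO 2 and KO 3 had a Pearson r of −0.91 and a Spearman rho of −0.91 with transcript GC content, and over 15803 genes of all kinds r was −0.55 and rho −0.61. Genes are not independent replicates, and all points share the same libraries, so these are descriptions. Ncapg, with 39.8% GC, was 4.81 times as high in KO 1 as in KO 2 and KO 3, and Plk1, with 56.0% GC, was at 0.70 times. The ratio of Ctrl 1 to the other two Ctrl libraries ran the other way (r = 0.66 over the 42). The fold change between groups was related to GC content as well, with r = 0.61 over the 42 and 0.37 over all genes. The 6 called genes had 47.3% to 55.6% GC (median 52.9%) and the other 36 a median of 45.7%, against 50.2% over all genes.

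Within bands of 5 points of GC content, 41 of the 42 had a log2 fold change above the median of all genes of their band, all but Spc25. In the band from 40% to 45% the 13 mitosis genes had a median of 0.29, against −0.45 over 2852 genes, and in the band from 50% to 55% the 9 had 0.41, against 0.17 over 4163. With offsets for GC content in each library, the median of the 42 was 0.71, against 0.05 over all genes. Then 41 of the 42 estimates were above 0, and the share of all genes above 0 was not counted. With the offsets 6 were called, where 6.30% of all genes were called higher and 5.55% lower: Birc5, Cdca8, Cenpa, Spc24, Cdk1 and Pttg1. Neither the offsets nor the bands were tried with KO 1 left out. Thus 4 of the 6 genes called without offsets were called with them. By exonic length, 5 of the 15 mitosis genes under 2500 bases and 1 of the 27 longer ones were called higher. Of all genes tested, 551 of 6053 under 2500 bases and 374 of 9750 longer ones were called higher. The part of GC content and length in these results beyond the offsets was not tested.

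**Figure D4:**
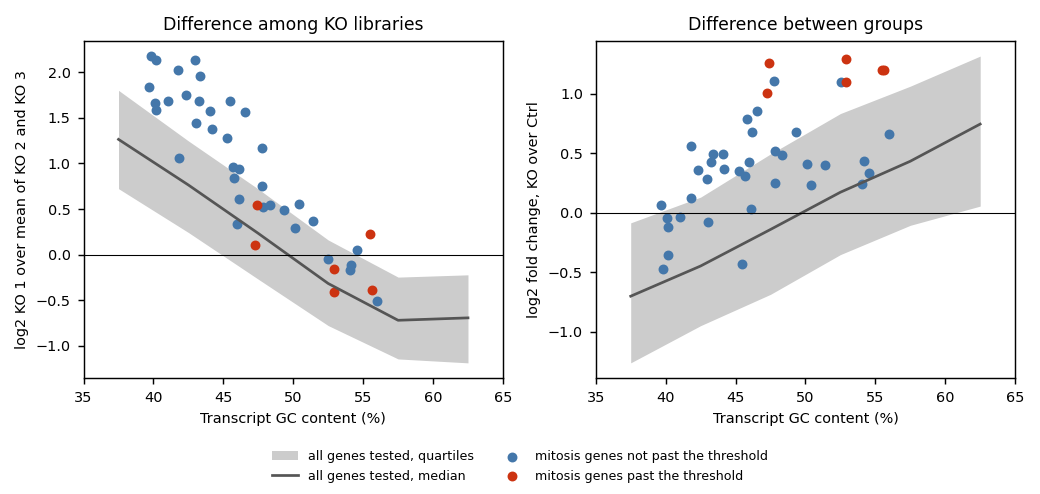
Transcript GC content in percent against the log2 ratio of KO 1 to the mean of KO 2 and KO 3 (left, with 0.5 CPM added) and against the log2 fold change between groups with TMM scaling (right), for the 42 mitosis genes (points, red where past the threshold). The grey line and band are the median and quartiles of all genes tested in bands of 5 points. On the left the ratio of the mitosis genes is lower at higher GC content (r = −0.91), and on the right 41 of 42 lie above the median of all genes of their band.

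Cell type markers moved with the groups and libraries too. The 15 endothelial markers summed to 3708 to 5657 CPM in the Ctrl libraries and 11428 to 15631 CPM in the KO libraries, and none was at 0 in a library. Their mean was lowest in Ctrl 1, at 7.24 log2 CPM against 7.80 and 7.85 in Ctrl 2 and 3, and stood at 8.91, 9.04 and 8.59 in KO 1, 2 and 3. The mitosis genes were lowest in Ctrl 1 as well, but highest in KO 1, where the endothelial markers were not highest. Of the 10 photoreceptor markers 0 rose and 2 fell, and they summed to 16208 to 28944 CPM in the Ctrl pups against 4046 to 19107 CPM in KO, with the lowest mean in KO 1. The photoreceptor is a cell type that no longer divides.

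Other dividing cells were followed by their own markers. Of 10 retinal progenitor markers 9 were tested and 0 called (3 at an unadjusted p under 0.05, 0 by DESeq2 and limma-voom). They summed to 661 to 892 CPM in the Ctrl pups against 584 to 777 CPM in KO, with Atoh7 at 0 in some library, and their mean in KO 1, 4.18 log2 CPM, lay between those of KO 2 (3.76) and KO 3 (4.25). The 10 microglial markers had 0 called (0 at an unadjusted p under 0.05, 0 by DESeq2 and limma-voom) and summed to 210 to 1241 CPM in the Ctrl pups against 197 to 9649 CPM in KO. They were lowest in KO 1, at 2.43 log2 CPM, where the mitosis genes were highest, and reached 9.13 in KO 2. Of the 8 glial markers 3 rose and 0 fell (820 to 1256 CPM in the Ctrl pups against 1347 to 1623 CPM in KO, with Aqp4 at 0 in some library), and of the 8 mural markers 1 rose and 0 fell (120 to 787 CPM in the Ctrl pups against 292 to 763 CPM in KO). Erythroid markers had 5 of 6 tested, 4 higher and 0 lower (4 called by DESeq2 and 4 by limma-voom), with a median log2 fold change of 2.83 and a sum of 50.7 to 81.6 CPM in the Ctrl libraries against 384 to 557 CPM in the KO libraries. Inner retinal neuron markers had 8 of 10 tested, 0 higher and 3 lower, and platelet markers 3 of 5 tested, 1 higher and 0 lower. The part of each cell type in the levels of the mitosis genes was not tested.

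**Figure D5:**
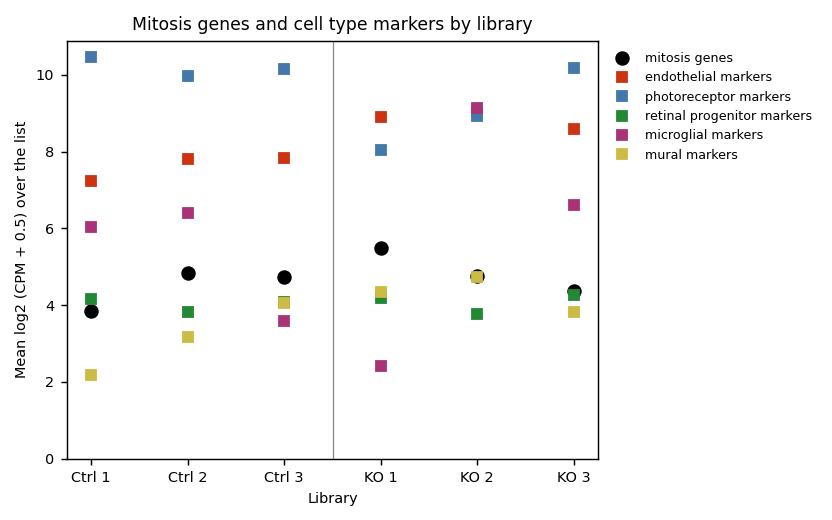
Mean log2 (CPM + 0.5) of the 42 mitosis genes (black) and of 5 lists of cell type markers in each library, with TMM scaling. The mitosis genes are highest in KO 1 (5.48) and lowest in Ctrl 1 (3.84), the microglial markers are lowest in KO 1 (2.43), and the retinal progenitor markers lie between 3.76 and 4.25 in all 6 libraries.

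Other genes of mitosis came from a separate list. Of 83 further genes of kinetochore, spindle, cohesin and mitotic control, 2 rose (2.41%) and 1 fell. Over all genes 5.85% rose and 4.44% fell. The median log2 fold change of the 83 was 0.09. Cks1b and Cks2, small subunits that bind Cdk1, were the 2 that rose. Cks1b measured 48.6, 46.1 and 48.7 CPM in the Ctrl pups against 89.4, 81.0 and 89.8 CPM in KO (log2 fold change 0.86, SE 0.208, edgeR adjusted p = 0.0405), with little spread in either group. Cks2 measured 7.28, 8.62 and 7.10 CPM in the Ctrl pups against 18.5, 15.1 and 16.7 CPM in KO (1.13, SE 0.289, edgeR adjusted p = 0.0471). Ncapd3, a subunit of condensin II, fell from 49.8, 53.9 and 41.1 CPM to 26.0, 24.8 and 22.6 CPM (−0.98, SE 0.241, edgeR adjusted p = 0.0422). With GC offsets Ncapd3 was at −0.72 and did not pass (edgeR adjusted p = 0.0611), while Cks1b and Cks2 passed (0.0195 and 0.0221). Cks1b and Cks2 did not pass with library size alone (edgeR adjusted p = 0.0660 and 0.0716) or with no filter (0.0514 and 0.0582). Of 12 mitotic kinesins 0 were called, 1 had an unadjusted p under 0.05, and DESeq2 called 1 and limma-voom 0.

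Regulators of mitotic transcription, 15 genes, had 0 called higher and 1 lower by edgeR (5.85% and 4.44% of all genes). DESeq2 called 1 higher and 3 lower (12.6% and 9.49% of all genes). Their median log2 fold change was −0.06, and 1 was higher and 4 lower at an unadjusted p under 0.05. In 5 every KO library lay below every Ctrl library (Lin52, Lin54, Rbl2, Nfyb and Nfyc), against 18.9% of all genes. The other way there were 0, against 19.0% of all genes. Lin52, a subunit of the MuvB core, fell from 36.2, 38.5 and 48.8 CPM to 22.0, 11.99 and 15.9 CPM (log2 fold change −1.31, SE 0.309, edgeR adjusted p = 0.0384), with no overlap. Foxm1 and Mybl2, the activators that bind with MuvB late in the cycle, were named after their values were seen, and their estimates lay above that median. Foxm1 measured 2.63, 8.58 and 5.08 CPM in the Ctrl pups against 16.0, 16.7 and 8.40 CPM in KO, a log2 fold change of 1.33 (SE 0.501, edgeR adjusted p = 0.119). Mybl2 was at 1.10 (SE 0.666, edgeR adjusted p = 0.301).

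Of 34 replication and G1/S genes 2 rose (5.88%, against 5.85% of all genes) and 0 fell (4.44% of all genes). Among these 34, 28 estimates were above 0, where 51.0% of all genes were, and the median log2 fold change was 0.60. E2f1, the transcription factor of S phase entry, measured 5.26, 4.58 and 4.04 CPM in the Ctrl pups against 20.5, 22.5 and 11.3 CPM in KO (1.96, SE 0.370, edgeR adjusted p = 0.0239). Gins2, a subunit of the replicative helicase, measured 8.06, 12.4 and 11.9 CPM in the Ctrl pups against 24.0, 42.1 and 24.5 CPM in KO (1.48, SE 0.346, edgeR adjusted p = 0.0371). E2f1 overlaps Necab3, Gins2 overlaps Gse1 and Foxm1 overlaps Tex52, so these counts are uncertain. Of 8 CDK inhibitors 7 were tested, and 1 rose and 0 fell. It was Cdkn1a (p21), which restrains CDKs, at 247, 232 and 239 CPM in the Ctrl pups against 740, 1254 and 1338 CPM in KO (2.21, SE 0.293, edgeR adjusted p = 0.0211). Its KO levels were lowest in KO 1, the library in which the mitosis genes were highest. Cdkn1a has 54.4% GC. For genes of 50% to 55% GC the median log2 ratio of KO 1 to the mean of KO 2 and KO 3 was −0.32. A relation between Cdkn1a and the mitosis genes was not tested. With libraries scaled to equal endothelial markers, Cks1b (−0.37) and Cks2 (−0.10) changed sign, and Cdkn1a (0.99), E2f1 (0.65) and Gins2 (0.26) did not pass. Ncapd3 (−2.23) and Lin52 (−2.51) fell under that scaling, which called 45.7% of all genes lower.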

How the data were processed

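Polyadenylated RNA of sorted retinal cells was amplified as full-length cDNA and read as single reads of 50 bases, per the labels' protocols, a preparation that does not mark strand. Tools listed without role or order, per the submitters' processing notes, are STAR, deepTools, edgeR, DESeq2 and Trimmomatic 0.36, and the build is mm10, and the counting tool is not given in the sources used here. Per the file headers and values, the authors deposited raw counts, normalized counts (a signal, the count divided by 1 size factor per library), RPKM, and from DESeq2 a log2 fold change with its error, a Wald statistic (a score) and p-values, for 34035 transcript entries. The count column of Ctrl 3 carries another number in its name and was matched because its ratio to the deposited normalized column of Ctrl 3 is constant. The labels give no batch or litter.

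The longest entry of each symbol was used, with ties broken by the higher count. The deposited length lay within 2% of the genomic span for 80.4% of matched genes, so reads in introns may be counted, and RPKM was not used. KO was compared with Ctrl on the raw counts by edgeR 4.0.16 (R 4.3.3, TMM, filterByExpr, glmQLFTest, Benjamini-Hochberg). DESeq2 1.42.0, limma 3.58.1, other scalings, filters, entries, GC offsets, single libraries left out and a replicate block were alternatives, 16 in all. The SE is the size of the log2 fold change divided by the square root of F. The edgeR step was run on simulated counts with a lower dispersion than these data and no GC trend. That run checks the recovery of set fold changes, not the calls at the spread of these data. GC content and exonic length are from GENCODE M21, for all 42 genes, and coordinates from RefSeq GRCm38.p6, the assembly of mm10. Summaries used Python 3.11.15 with scipy 1.17.1, pandas 2.3.3 and numpy 2.4.6, and plots matplotlib 3.10.9. Per-library values were given for members past the threshold, for the 2 members of each role with the smallest p, and for Mki67, Top2a, Cdk1, Ccnb1, Plk1, Cdc20 and Cenpe, and of the other lists for up to 6 genes past the threshold. Members and lists were chosen with earlier results of these data known.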

Additional observations from a re-analysis of the deposited data

How the results depend on the processing

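The count of mitosis genes called higher, 6, was 2 with library size alone (all genes: 683 higher and 836 lower, 45.0% higher against 56.8%), and 0 with libraries scaled to equal endothelial markers, where 6 were lower, the median of the 42 was −0.81, 7494 genes were called (1.00% of them higher) and 57 of the other cell cycle genes were, against 7. It was 5 to 8 with DESeq2, limma-voom, RLE scaling, either other filter, the other transcript entry and GC offsets. All genes called were 1668, and 3556 with DESeq2, which called 18 of the other cell cycle genes, and GC offsets called 11. Leaving out 1 library gave 0 to 7 mitosis genes higher, 0 lower, 0 to 36 other cell cycle genes, 0 to 4927 genes in all and a median from 0.10 to 0.68. With endothelial scaling, signs reversed for Cdca8 (−0.12), Cenpa (−0.21), Cdc20 (−0.022), Cdk1 (−0.060), Ccnb2 (−0.50), Plk1 (−0.50), Aurka (−0.87), Dlgap5 (−0.49), Tpx2 (−0.66), Mki67 (−0.37), Ncaph (−0.71), Racgap1 (−0.83), Anln (−0.86), Top2a (−0.67), Ccnb1 (−0.78), Cenpe (−0.88), Cks1b (−0.37), Cks2 (−0.10), Aurkb (−0.11), Pttg1 (−0.81) and Mybl2 (−0.060). With GC offsets they reversed for Ncapg (0.089), Smc4 (0.43) and Ect2 (0.30). With 1 library left out, log2 fold changes that changed sign ranged from −0.77 to 0.68 for Cenpe, −1.17 to 0.026 for Spc25, −1.15 to 0.27 for Smc4, −0.15 to 0.72 for Anln, −0.41 to 0.90 for Top2a, −0.21 to 0.65 for Ccnb1 and −1.04 to 0.023 for Ect2. The cause was not tested in any of these.

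The labels do not say whether replicate numbers pair the libraries. The deviations of same-numbered libraries from their group means had correlations of −0.32, 0.07 and −0.23, and no library correlated best with its own number. Libraries also differed by GC content and cell type markers, so these correlations cannot decide whether the numbers share a litter or preparation. With the number as a block, 0 mitosis genes, 0 other cell cycle genes and 1 gene in all were called, with 8 mitosis genes at an unadjusted p under 0.05, and Cenpe was at −0.10.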
